A study of Homo sapiens with 4 samples.

Results

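Serum amyloid A, lipocalin 2, complement and chitinase-like genes were followed in TPC1 cells, an established line from a human papillary thyroid cancer that carries a CCDC6-RET fusion. The group has 8 genes (SAA1, SAA2, SAA4, LCN2, C3, CFB, CHI3L1 and CHI3L2) out of 20372 rows of the deposited table, and 7 of the 8 had enough reads to enter the test across all genes. They were selected on shared function, with the fold changes of this same contrast already known from an earlier analysis of these libraries. Their levels and fold changes are therefore given as a description, with no test. Messenger RNA was sequenced in 2 libraries of cells treated for 6 h with BLU6864, a selective inhibitor of the RET kinase, and in 2 libraries of cells given the solvent DMSO, all grown in DMEM with serum. The labels state a BLU6864 dose of 100 micromolar. The methods of the study name a nanomolar dose, and which one applied is uncertain. The DMSO columns carry 24 h in their names while the DMSO labels carry no time, so that drug and time in culture cannot be told apart. Nothing in the sources says whether the 2 libraries of a group came from separate cultures, and the spread between them may be technical.

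The acute-phase response is the rise of a set of secreted defence proteins after injury or infection. The liver is its main source, and epithelial cells also make several of these proteins. IL-1 and IL-6 type cytokines drive it through the transcription factors NF-kB, C/EBP and STAT3. SAA1 and SAA2 are inducible apolipoproteins of high-density lipoprotein, and SAA4 is the constitutive member of the family. LCN2 is a lipocalin that withholds iron by binding bacterial siderophores. C3 is the central protein of the complement cascade, and CFB supplies the protease of the alternative pathway convertase that cleaves it. CHI3L1 and CHI3L2, also known as YKL-40 and YKL-39, are secreted relatives of the chitinases that bind chitin-like sugars without cutting them.

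Total counts over the table were between 23750509 and 28305571 reads per library. Of the thyroid follicular markers, PAX8 (-0.36 on the log2 scale), TG (-0.85) and FOXE1 (-0.48) were measured and lower with BLU6864, and TSHR and NKX2-1 had no read in any library, so the thyroid identity rests on few genes. The 6 epithelial markers summed to 3032 and 2911 with BLU6864 and to 4336 and 3723 with DMSO, while EPCAM had at most 11 reads and CDH1 at most 8 in a library. KRT18 was lower (-1.02, adjusted p = 3.52e-08) and KRT7 higher (0.41, adjusted p = 0.0381), the KRT7 call being lost without BLU6864 replicate 2 (0.574), without DMSO replicate 1 (0.101) and with DESeq2 (0.179). Summed hepatocyte markers (ALB, APOA2, APOB, TTR, APOH and CYP3A4) came to 2.10 and 2.81 normalized counts in the BLU6864 libraries and 2.75 and 6.57 in the DMSO libraries, which is at or near 0. Summed leukocyte markers stood at 4764 and 4554 with BLU6864 and at 5792 and 5157 with DMSO, nearly all of it CD68, while CD3E and MPO had no read. Of the 8 leukocyte markers 3 were tested, and CD14 was higher (log2 fold change 1.28) and CSF1R lower (-1.35). The 4 fibroblast markers summed to 547 and 571 with BLU6864 and to 387 and 347 with DMSO, with COL3A1 and DCN at 0. COL1A1 (0.53, adjusted p = 0.00483) and PDGFRB (0.66, adjusted p = 4.61e-04) were called higher. The endothelial gene VWF was higher (1.56, adjusted p = 0.029) at 16.8 and 10.3 normalized counts with BLU6864, against 3.66 and 5.47 with DMSO. Of the other endothelial markers, CDH5 had at most 1 read in a library and PECAM1 was not found in the table. The part of these marker genes in the results was not tested, and in bulk RNA a change in the number of cells of a type cannot be told apart from a change in RNA per cell.

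SAA1 and SAA2 are near copies, and their sequences set how far their counts can be separated. The coding parts of both canonical transcripts are 369 bases long and are 97.0% identical, with 11 substitutions and a longest identical run of 186 bases. SAA4 shares 68.7% of its aligned coding columns with SAA1. The first pair of sequences below is the stretch of 120 coding bases (204 to 323, counted from the start codon) with the most differences, with the 10 differing bases in capitals. A read that covers such a base can be assigned to 1 of the 2 genes. The last line is an identical stretch (bases 44 to 163) printed once, where a 50-base read cannot be assigned.
SAA1: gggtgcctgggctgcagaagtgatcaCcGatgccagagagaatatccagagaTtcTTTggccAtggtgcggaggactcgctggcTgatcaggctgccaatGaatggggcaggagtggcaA
SAA2: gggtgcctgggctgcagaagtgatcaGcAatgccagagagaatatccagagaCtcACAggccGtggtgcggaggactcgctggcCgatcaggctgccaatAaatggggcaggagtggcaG
SAA1 and SAA2 alike: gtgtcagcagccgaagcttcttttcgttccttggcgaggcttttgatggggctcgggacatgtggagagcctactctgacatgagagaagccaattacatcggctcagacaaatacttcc

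Cut into windows of 50 bases, the read length in the labels, 40.9% of the 469 windows of the SAA1 transcript also occurred in an SAA2 transcript, and 36.6% of the 527 windows of SAA2 also occurred in an SAA1 transcript. The annotated readthrough SAA2-SAA4, which has no row of its own among the rows used here, contained 41.7% of the SAA2 windows and 74.0% of the 581 SAA4 windows. CFB had the highest share, since 90.7% of its 2427 windows were also in transcripts of ENSG00000244255, a second gene model over the same bases. That model has a row under the same symbol with 0 reads in all libraries. No window of LCN2, C3, CHI3L1 or CHI3L2 occurred in another annotated gene. How reads that fit several genes were counted is not given in the sources used here, so the levels of SAA1, SAA2, SAA4 and CFB are uncertain.

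**Figure D1:**
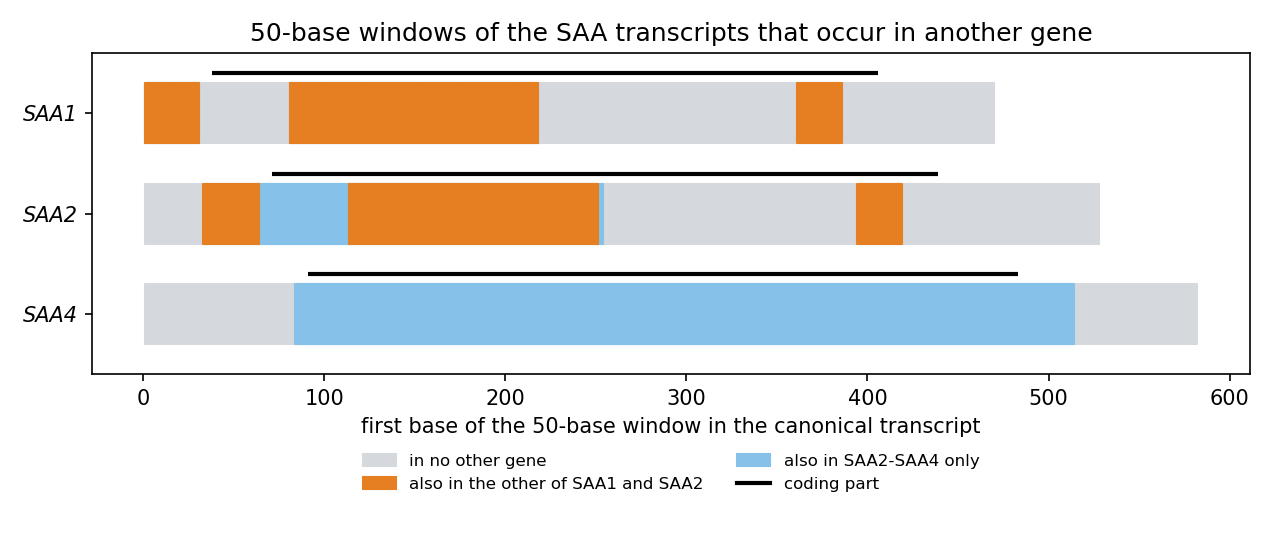
Windows of 50 bases along the canonical transcripts of SAA1, SAA2 and SAA4, placed by their first base, coloured by whether the same 50 bases occur in another annotated gene. Orange windows, 40.9% of SAA1 and 36.6% of SAA2, are shared by these 2 genes, light blue ones only with the SAA2-SAA4 readthrough, and the black line marks the coding part.

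All 7 members that were tested stood higher with BLU6864, with no overlap between the groups. Since the members were chosen on this contrast, the count is descriptive. SAA4 (1 and 4 reads with DMSO) and CFB (2 and 0) passed the filter on low counts only through their BLU6864 libraries. That filter therefore fixed their direction. Over all 12696 tested genes, 20.3% were called higher, 22.0% were called lower, and 35.1% had both BLU6864 libraries above both DMSO libraries. The exception among the 8 was CHI3L1, which was barely detected. Levels below are the authors' normalized counts, and fold changes are BLU6864 over DMSO on the log2 scale with their standard error.

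**Figure D2:**
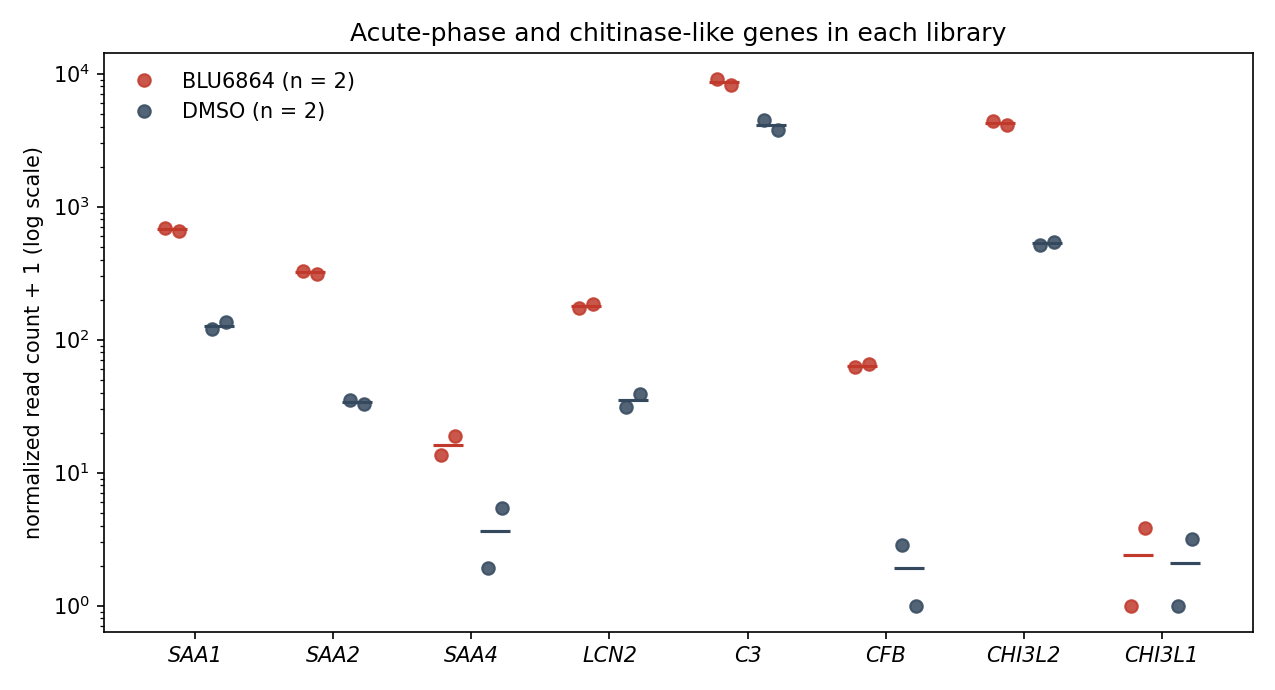
Normalized read counts plus 1, on a log axis, of the 8 genes in each of the 2 BLU6864 (red) and 2 DMSO (dark blue) libraries, with a line at the group mean. The groups are apart for 7 genes, from 8594 against 4121 for C3 to 62.8 against 0.915 for CFB, and overlap for CHI3L1.

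SAA2 (ENSG00000134339, hg19 chromosome 11, 18260770 to 18270190) had 328 and 312 normalized counts in the BLU6864 libraries, against 33.9 and 31.7 in the DMSO libraries. The libraries of each group lay close together, and the mean was 9.75 times that with DMSO (320 ± 11.3 and 32.8 ± 1.51, SD, n = 2 each, log2 fold change 3.28 ± 0.18). SAA1 (ENSG00000173432, 18287721 to 18291524 on the same chromosome) had 690 and 658 with BLU6864, against 118 and 135 with DMSO. That is 5.34-fold (674 ± 22.5 and 126 ± 11.7, log2 fold change 2.42 ± 0.14). SAA1 had more reads than SAA2 in every library, and the fold of SAA2 was the larger.

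Of the reads given to SAA1 or SAA2, the share given to SAA2 was 32.2% (95% exact binomial interval 29.3 to 35.2%) and 32.1% (29.3 to 35.1%) with BLU6864. With DMSO it was 22.3% (16.2 to 29.4%) and 19.1% (13.2 to 26.2%). Both BLU6864 shares were above both DMSO shares. The intervals cover counting error only and those of BLU6864 meet that of DMSO replicate 1 near 29.3%, and reads in the shared windows carry no information on this split. With both genes summed into a single feature before the fit, the log2 fold change was 2.65 ± 0.13. The sum does not depend on how counted reads were split between the genes. How reads that fit both genes or the SAA2-SAA4 readthrough were counted is not given, so the sum may miss some of them.

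SAA4 (ENSG00000148965, 18252896 to 18258440), the third gene of the cluster, was close to the limit of detection. It had 12 and 19 reads with BLU6864, against 1 and 4 with DMSO. The 31 reads against 5 correspond to a ratio of 6.16 per size factor, with an exact 95% interval from 2.38 to 20.3. That interval covers counting error only, not the spread between libraries, and is not a test. The log2 fold change was 2.57 ± 0.64. Leaving out DMSO replicate 1 gave 1.78 and leaving out DMSO replicate 2 gave 3.90, so the size of the SAA4 difference depends on which DMSO library is used.

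LCN2 (ENSG00000148346, chromosome 9, 130911350 to 130915734) had 172 and 185 normalized counts with BLU6864, against 30.2 and 38.3 with DMSO. The mean was 179 ± 9.29 with BLU6864 and 34.3 ± 5.72 with DMSO, 5.22-fold (log2 fold change 2.40 ± 0.21). Its fold change lay next to that of SAA1 on the same scale.

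C3 (ENSG00000125730, chromosome 19, 6677715 to 6730573) had the most reads of the group, with 9053 and 8135 normalized counts in the BLU6864 libraries, against 4470.3 and 3772 in the DMSO libraries. Its fold was the smallest of the 7, at 2.09 (8594 ± 649 and 4121 ± 494, log2 fold change 1.06 ± 0.12). Among all tested genes, 473 had a higher log2 fold change than C3, whereas 36 had a higher one than SAA2 and 45 a higher one than CHI3L2.

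CFB (ENSG00000243649, chromosome 6, 31895475 to 31919861) had almost no counted reads with DMSO. It had 58 and 69 reads with BLU6864, against 2 and 0 with DMSO. Since 90.7% of its windows also fit a second gene model with 0 reads, the counted reads may be only a part of those from CFB. Its low counts are therefore not a measure of absence. The ratio per size factor was 63.1, with an exact 95% interval from 17.1 to 527 for counting error. Its fitted log2 fold change of 5.82 ± 0.53 depends on the small constant the fit adds, and it was 8.94 without DMSO replicate 1 and 5.01 without DMSO replicate 2. CFB therefore had the largest ratio of the 7 measured members and the widest interval. The gene model of C2, the classical pathway counterpart of CFB, overlaps that of CFB in the table and is described with its own counts below.

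CHI3L2 (ENSG00000064886, chromosome 1, 111743393 to 111786062) combined a high level with a large fold. It had 4363 and 4095 normalized counts with BLU6864, against 517 and 543 with DMSO. The mean was 4229 ± 190 with BLU6864 and 530 ± 18.1 with DMSO, 7.98-fold (log2 fold change 3.001 ± 0.11). None of its 50-base windows occurred in another annotated gene. The model of DENND2D overlaps that of CHI3L2 in the table, with 2 and 7 reads with BLU6864, against 1 and 0 with DMSO. Its relative CHI3L1 (ENSG00000133048, chromosome 1, 203148059 to 203155877) had 0 and 3 reads with BLU6864, against 0 and 2 with DMSO. A count of 0 allows up to 3 reads, so no difference in CHI3L1 was detectable at this depth (ratio 1.49, exact 95% interval 0.171 to 17.8). The coding sequences of the CHI3L pair are 60.3% identical over 1187 aligned columns.

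The levels were divided by the length of the canonical transcript to set them side by side. This does not correct for reads that fit several genes. The levels of SAA1, SAA2, SAA4 and CFB, and so their places in the order, remain uncertain. With BLU6864 the order was CHI3L2 (2987 ± 134 normalized counts per kilobase), C3 (1643 ± 124), SAA1 (1302 ± 43.5), SAA2 (555 ± 19.5), LCN2 (218 ± 11.3), CFB (25.4 ± 1.05), SAA4 (24.1 ± 5.82) and CHI3L1 (0.804 ± 1.14). With this length, CFB and SAA4 did not differ beyond their spread. With DMSO, C3 led (788 ± 94.4 per kilobase), followed by CHI3L2 (374 ± 12.8), SAA1 (244 ± 22.5), SAA2 (56.9 ± 2.62) and LCN2 (41.8 ± 6.98). SAA4 (4.20 ± 3.89), CHI3L1 (0.626 ± 0.886) and CFB (0.370 ± 0.523) could not be ranked against each other with DMSO. CHI3L2 thus stood above C3 with BLU6864 and below it with DMSO. Over the merged exons of all transcripts in place of the canonical one, SAA2 (14.6 per kilobase) fell below LCN2 (21.5) with DMSO, and with BLU6864 CFB (11.8) stood below SAA4 (24.1).

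Promoter sequences are shown for LCN2, CFB and CHI3L2, on 3 chromosomes, which stood higher. SAA4, on chromosome 11, also stood higher (2.57) near the limit of detection, and its window is described below but not printed. Entries were found in the RefSeq promoter set (GRCh38.p14) for SAA4, LCN2, CFB, CHI3L1 and CHI3L2, which is 5 of the 8 genes, and SAA1, SAA2 and C3 had none. The 250 bases before the annotated start are printed 5′ to 3′ for LCN2 (chr9:128149203-128149452, plus strand), CFB (chr6:31945845-31946094, plus strand) and CHI3L2 (chr1:111227409-111227658, plus strand, the upstream one of its starts). Capitals mark every match to GGGA and TCC with any 3 bases between them (an NF-kB type site), TTNNGNAA (C/EBP), TTCNNNGAA (STAT) and TGANTCA (AP-1) on either strand and to TATAAA on the strand of the gene, letters that were chosen with these promoters in view.
LCN2: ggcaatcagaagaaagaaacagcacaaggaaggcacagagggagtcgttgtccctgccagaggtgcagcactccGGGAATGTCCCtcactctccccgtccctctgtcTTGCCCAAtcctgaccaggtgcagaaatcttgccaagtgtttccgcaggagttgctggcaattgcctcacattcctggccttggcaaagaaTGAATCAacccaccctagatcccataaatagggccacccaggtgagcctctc
CFB: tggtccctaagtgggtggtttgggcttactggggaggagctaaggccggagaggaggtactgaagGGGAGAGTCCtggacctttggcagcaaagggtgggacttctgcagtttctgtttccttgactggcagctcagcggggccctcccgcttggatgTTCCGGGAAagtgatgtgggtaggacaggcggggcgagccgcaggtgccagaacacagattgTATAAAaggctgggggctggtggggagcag
CHI3L2: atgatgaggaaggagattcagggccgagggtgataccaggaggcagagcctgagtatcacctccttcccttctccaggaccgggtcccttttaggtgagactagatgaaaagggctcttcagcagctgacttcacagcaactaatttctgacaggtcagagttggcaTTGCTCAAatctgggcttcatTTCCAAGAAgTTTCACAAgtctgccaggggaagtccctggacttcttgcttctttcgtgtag

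The LCN2 window held the NF-kB type letters 176 bases before the start, on both strands with 1 base of offset, a C/EBP match at 143 and an AP-1 match at 52 bases before it. The CFB window held NF-kB type letters 185 bases before the start, a STAT match (TTCCGGGAA) at 92 and TATAAA at 30 bases before it. The CHI3L2 window held a STAT match 62 bases before the start and C/EBP matches at 83 and 52 bases before it, the nearer of which follows the STAT match. Of 27305 promoters cut to the same length, 4.33% held the NF-kB type letters, 33.6% the C/EBP, 6.78% the STAT, 6.60% the AP-1 and 7.17% the TATAAA letters. The SAA4 window had 6 C/EBP matches and no match to the NF-kB type, STAT, AP-1 or TATAAA letters. The CHI3L1 window had 2 C/EBP matches, and CHI3L1 also had TATAAA 27 bases before its start. A match describes letters and is not evidence of a bound factor.

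Genes that are known to induce or accompany these proteins were counted from 10 lists of 146 genes. The lists were chosen by function, but with earlier results of these data known, so their counts are descriptive. Of these genes, 1 name was not found in the table. Of the 146 genes 80 were measured, 46 of the 80 were called, and 28 of the 46 kept their call in every alternative tried. Beside these counts stand 20.3% of all tested genes called higher, 22.0% called lower and 42.2% called in either direction, with a median log2 fold change of 0.01 over all tested genes.

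**Figure D3:**
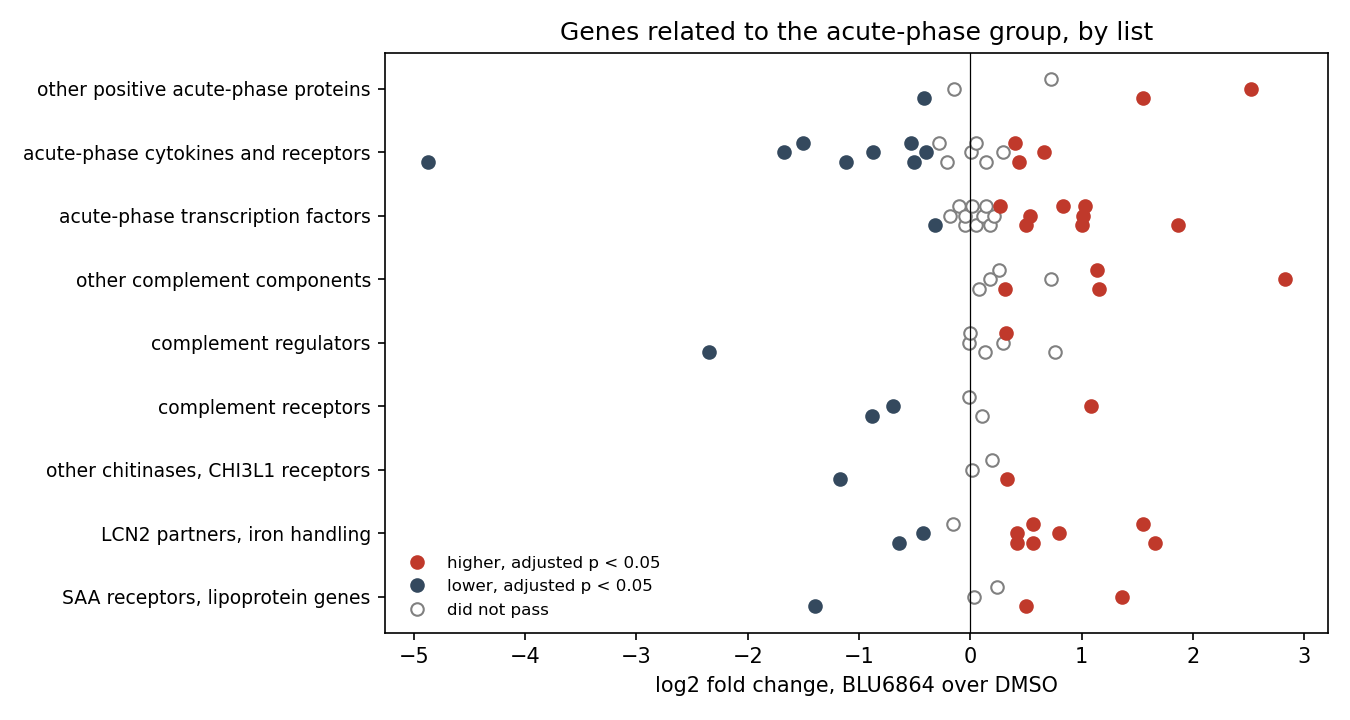
Log2 fold change, BLU6864 over DMSO, of the measured genes of 9 lists of related genes, each point a gene, red where called higher, dark blue where called lower and open where the test was not passed. The list of negative acute-phase proteins had no measured gene, and the point farthest to the left is IL1B at -4.87.

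Among the cytokines that induce the acute phase and their receptors, 8 of 17 measured genes fell and 3 rose (median -0.28), a count of 11 that was 7 without BLU6864 replicate 2. IL1B, a main inducer of the SAA genes, had 571 and 644 normalized counts with BLU6864, against 16119 and 19541 with DMSO (log2 fold change -4.87 ± 0.15, adjusted p = 1.02e-18). The cytokine genes LIF (-1.50 ± 0.11, adjusted p = 8.98e-12), IL11 (-1.67 ± 0.13, adjusted p = 6.98e-11) and IL1A (-1.12 ± 0.13, adjusted p = 8.14e-08) also fell. The IL-1 receptor gene IL1R1 (-0.88), its partner IL1RAP (-0.53), OSMR (-0.51) and LIFR (-0.40), named after their values were seen, completed the 8. OSMR was not called on leaving out BLU6864 replicate 2 (adjusted p = 0.112), and LIFR without BLU6864 replicate 1 (0.0899) or 2 (0.183). The members that rose, also named afterwards, were the receptor genes IL17RC (0.67), TNFRSF1A (0.44) and IL10RB (0.40). TNFRSF1A was not called on leaving out BLU6864 replicate 1 (adjusted p = 0.0987) or 2 (0.106), nor was IL10RB (0.0741 and 0.117). IL6ST, the shared signalling receptor of the IL-6 family, averaged 16793 ± 424 normalized counts with BLU6864, against 15276 ± 312 with DMSO (0.14 ± 0.12, adjusted p = 0.375), and IL6R averaged 1063 ± 20.4 with BLU6864, against 1031 ± 59.1 with DMSO (0.05 ± 0.11, adjusted p = 0.753). IL6 and TNF, also named afterwards, did not pass. IL6 stood at -0.28 ± 0.16 (adjusted p = 0.156) with overlapping groups, and its direction followed the DMSO library used. Leaving out DMSO replicate 1 gave -0.65, which was called (adjusted p = 2.36e-10), whereas leaving out DMSO replicate 2 gave 0.18 (0.136). It was also called lower with no filter on low counts (adjusted p = 0.0427). TNF stood at -0.21 ± 0.16 (adjusted p = 0.318).

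Of the transcription factors of the acute phase and their close regulators, 8 of 19 measured rose and 1 fell (median 0.18). CEBPD, a C/EBP factor that is itself induced in the acute phase, had 17163 and 16829 normalized counts with BLU6864, against 4832 and 4498 with DMSO (1.87 ± 0.12, adjusted p = 1.73e-12). NR3C1, the glucocorticoid receptor, rose by 1.01 ± 0.11 (adjusted p = 1.94e-08), BCL3, an IkB-like cofactor of NF-kB, by 1.01 ± 0.11 (adjusted p = 2.39e-08) and TFAP2A by 1.03 ± 0.11 (adjusted p = 2.96e-08). CEBPB (0.14 ± 0.12, adjusted p = 0.353) and NFKBIZ, a cofactor for LCN2 transcription (0.21 ± 0.11, adjusted p = 0.143), did not pass. CEBPB was called higher on leaving out DMSO replicate 1 (adjusted p = 0.0182) and NFKBIZ without DMSO replicate 2 (adjusted p = 0.0425). STAT3, named after its values were seen, rose by 0.50 ± 0.11 and kept its call in every alternative (adjusted p = 0.00076, at most 0.0346). SP1, the weakest of the 8 (0.27 ± 0.11, adjusted p = 0.0456), was not called without BLU6864 replicate 1 (0.321), BLU6864 replicate 2 (0.322) or DMSO replicate 2 (0.0779), with DESeq2 (0.0513) or with no filter on low counts (0.0561). The gene that fell, CEBPG (-0.32 ± 0.11, adjusted p = 0.0243), was not called on leaving out BLU6864 replicate 1 (0.243) or 2 (0.23) or with DESeq2 (0.0576).

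Of 22 other positive acute-phase and secreted innate proteins, only 5 were measured, and 2 rose and 1 fell. TNFAIP6, a hyaluronan-binding protein induced by IL-1 and TNF, had 19679 and 19516 normalized counts with BLU6864, against 2879 and 3990 with DMSO (2.52 ± 0.14, adjusted p = 8.91e-14). PTX3, the long pentraxin, had 31535 and 27207 with BLU6864, against 9969 and 10081 with DMSO (1.56 ± 0.13, adjusted p = 2.57e-10). Both genes were at a high level already with DMSO. SERPINA1, the alpha-1 antitrypsin gene, was lower (-0.41 ± 0.11, adjusted p = 0.00477), no longer called on leaving out BLU6864 replicate 1 (0.0708) or 2 (0.242). Fibronectin FN1 (-0.15 ± 0.16, adjusted p = 0.476) and ceruloplasmin CP (0.72 ± 0.46, adjusted p = 0.211) did not pass. CRP, haptoglobin, the orosomucoids and the fibrinogen chains were among the 17 that had too few reads, and 0 of the 8 negative acute-phase genes, such as ALB and TTR, could be measured.

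Complement was followed in 3 lists. Of 26 other components, 8 were measured, 4 rose and 0 fell (median 0.52), and the 4 became 1 without BLU6864 replicate 1, 1 without BLU6864 replicate 2 and 2 without DMSO replicate 1. C2, which overlaps CFB, had 12 and 18 reads with BLU6864, against 2 and 2 with DMSO (log2 fold change 2.83 ± 0.65, adjusted p = 9.87e-04, 0.0579 without BLU6864 replicate 2). MASP2, a protease of the lectin pathway, rose by 1.16 ± 0.33 (adjusted p = 0.00645), no longer called on leaving out BLU6864 replicate 1 (0.0998) or DMSO replicate 1 (0.142) or with DESeq2 (0.0842). C1RL (0.31 ± 0.11, adjusted p = 0.0185) was not called on leaving out BLU6864 replicate 1 (0.176) or 2 (0.253). C1S, a protease of the classical pathway, rose by 1.14 ± 0.41 (adjusted p = 0.0266) but not without BLU6864 replicate 1 (0.161), BLU6864 replicate 2 (0.145) or DMSO replicate 1 (0.293), nor with DESeq2 (0.21). C5 (0.07 ± 0.17, adjusted p = 0.755) and the positive regulator CFP (0.18 ± 0.19, adjusted p = 0.458) did not pass. Transcripts of the C1q chains had no read. Among the 4 that rose, C2 passed the filter on low counts only through its BLU6864 libraries, which fixed its direction.

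Among the regulators that protect cells from complement, 1 of 7 measured rose and 1 fell, with a count of 1 in place of 2 without BLU6864 replicate 1 or 2. CD46, a membrane cofactor for C3b cleavage, was slightly higher (0.32 ± 0.13, adjusted p = 0.0424), no longer called on leaving out BLU6864 replicate 1 (0.267), BLU6864 replicate 2 (0.308) or DMSO replicate 1 (0.218). CR1, the C3b receptor, fell by 2.35 ± 0.42 on the log2 scale (6 and 6 reads with BLU6864, against 33 and 29 with DMSO, adjusted p = 6.42e-05). Clusterin CLU (0.30 ± 0.14, adjusted p = 0.083) was called higher on leaving out DMSO replicate 1 (0.0486) and with DESeq2 (0.0275), and CD59 did not pass (-0.01 ± 0.12, adjusted p = 0.942). Of 5 measured receptors, C5AR1, the receptor of the C5a anaphylatoxin, rose (454 ± 14.5 with BLU6864, against 215 ± 12.2 with DMSO, 1.09 ± 0.13, adjusted p = 1.86e-07). C3AR1, the receptor of the C3a fragment of C3, fell (205 ± 7.52 with BLU6864, against 379 ± 12.9 with DMSO, -0.88 ± 0.13, adjusted p = 6.19e-06), as did the integrin chain ITGAX (-0.70 ± 0.12, adjusted p = 4.21e-05). C3 and the receptor of its own fragment thus differed in opposite directions. ITGB2 (0.10 ± 0.22, adjusted p = 0.735) and C1QBP (-0.01 ± 0.11, adjusted p = 0.93) did not pass.

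Of the other chitinase family genes and the receptors proposed for CHI3L1, 4 of 7 were measured, 1 rose and 1 fell, with a count of 1 in place of 2 without BLU6864 replicate 1 or 2. IL13RA2 fell (222 ± 14.9 with BLU6864, against 503 ± 120 with DMSO, -1.17 ± 0.15, adjusted p = 4.6e-07). Its partner TMEM219 was higher (0.33 ± 0.11, adjusted p = 0.0145), no longer called on leaving out BLU6864 replicate 1 (0.0965) or 2 (0.344). The family members CHID1 (0.19 ± 0.10, adjusted p = 0.137) and CTBS (0.02 ± 0.11, adjusted p = 0.902) did not pass, and CHID1 was called higher on leaving out DMSO replicate 1 (0.035). The acidic mammalian chitinase CHIA, 47.4 kb from CHI3L2, had no read.

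Iron handling was followed for its link to LCN2. Of 12 genes 10 were measured, 7 rose and 2 fell (median 0.49), a count of 9 that was 5 without BLU6864 replicate 1. The haem oxygenase HMOX1 had 10474 ± 469 normalized counts with BLU6864, against 3322 ± 559 with DMSO (1.66 ± 0.13, adjusted p = 3.16e-11). The iron exporter SLC40A1 (1.56 ± 0.18, adjusted p = 9.33e-08) and the ferritin heavy chain FTH1 (0.80 ± 0.13, adjusted p = 1.5e-05) rose, and ferritin reads can also fit processed pseudogenes. MMP9, whose protein LCN2 binds, fell (-0.64 ± 0.11, adjusted p = 5.83e-05). The transferrin receptor TFRC, named after its values were seen, was lower (-0.42 ± 0.12, adjusted p = 0.00647), no longer called on leaving out BLU6864 replicate 1 (0.126) or 2 (0.193). IREB2 did not pass (-0.15 ± 0.11, adjusted p = 0.254, 0.0396 without DMSO replicate 2). The LCN2 receptor gene SLC22A17 had between 8 and 11 reads per library and LRP2 had none.

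Of 10 receptors and lipoprotein partners of SAA, 5 were measured, 2 rose and 1 fell. The cholesterol exporter ABCA1 had 3660 ± 25.3 normalized counts with BLU6864, against 1427 ± 108 with DMSO (1.36 ± 0.11, adjusted p = 7.12e-11). SCARB1, the receptor of high-density lipoprotein, rose by 0.51 ± 0.12 (adjusted p = 0.00109, 0.061 without BLU6864 replicate 1). FPR2, a receptor for SAA, fell (17 and 19 reads with BLU6864, against 57 and 38 with DMSO, -1.39 ± 0.31, adjusted p = 6.19e-04). TLR4 (0.03 ± 0.12, adjusted p = 0.858) and AGER (0.24 ± 0.23, adjusted p = 0.426) did not pass.

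The genes within 100 kb of each member differed between the loci. Around the SAA cluster, 4 neighbours were tested within 100 kb of SAA4 and 3 within 100 kb of SAA1 or SAA2, and 0 of them passed the edgeR test (unadjusted p under 0.05 for 0 of the 4, and 0 called with DESeq2). HPS5 stood at -0.11 ± 0.11, GTF2H1 at 0.13 ± 0.11 and RP11-113D6.6 at -0.21 ± 0.24. MRGPRX3, with few reads, stood at 0.94 ± 0.46 (adjusted p = 0.104). Around LCN2, 1 of 6 tested neighbours was lower, the mitochondrial carrier gene SLC25A25 (-0.35, adjusted p = 0.0374), no longer called on leaving out BLU6864 replicate 1 (0.138), BLU6864 replicate 2 (0.367) or DMSO replicate 1 (0.111).

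Around C3, 2 of 4 tested neighbours were higher. The TNF family ligand gene TNFSF14 had 43 and 67 reads with BLU6864, against 8 and 5 with DMSO (3.05, adjusted p = 3.05e-07), and SH2D3A rose by 1.44 (adjusted p = 0.00582, 0.141 without BLU6864 replicate 1 and 0.0808 without DMSO replicate 1). GPR108, whose model overlaps C3 in the table, stood at 0.19 (adjusted p = 0.142). Around CFB, in the gene-dense class III part of the major histocompatibility complex, 8 of 11 tested neighbours were higher and 0 lower, against 20.3% of all tested genes. Besides C2 these were NEU1 (0.92), HSPA1B (0.92, which has a near copy), EHMT2 (0.89), ZBTB12 (0.82), C6orf48 (0.53), DXO (0.47) and NELFE (0.29). DXO was not called on leaving out BLU6864 replicate 2 (adjusted p = 0.269), and NELFE on leaving out BLU6864 replicate 1 (0.19), BLU6864 replicate 2 (0.361) or DMSO replicate 1 (0.105). Around CHI3L2 both tested neighbours, CEPT1 (0.44, adjusted p = 0.00159) and DRAM2 (0.37, adjusted p = 0.0101), were slightly higher. CEPT1 was not called on leaving out BLU6864 replicate 2 (0.118), and DRAM2 on leaving out BLU6864 replicate 1 (0.0987), BLU6864 replicate 2 (0.175) or DMSO replicate 1 (0.0685). Next to CHI3L1 the only tested neighbour, ADORA1, was lower (-0.32, adjusted p = 0.0399), no longer called on leaving out BLU6864 replicate 1 (0.287), BLU6864 replicate 2 (0.209) or DMSO replicate 1 (0.232). With DESeq2, SLC25A25 (adjusted p = 0.144), SH2D3A (0.0859), DXO (0.0557) and ADORA1 (0.114) were not called.

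**Figure D4:**
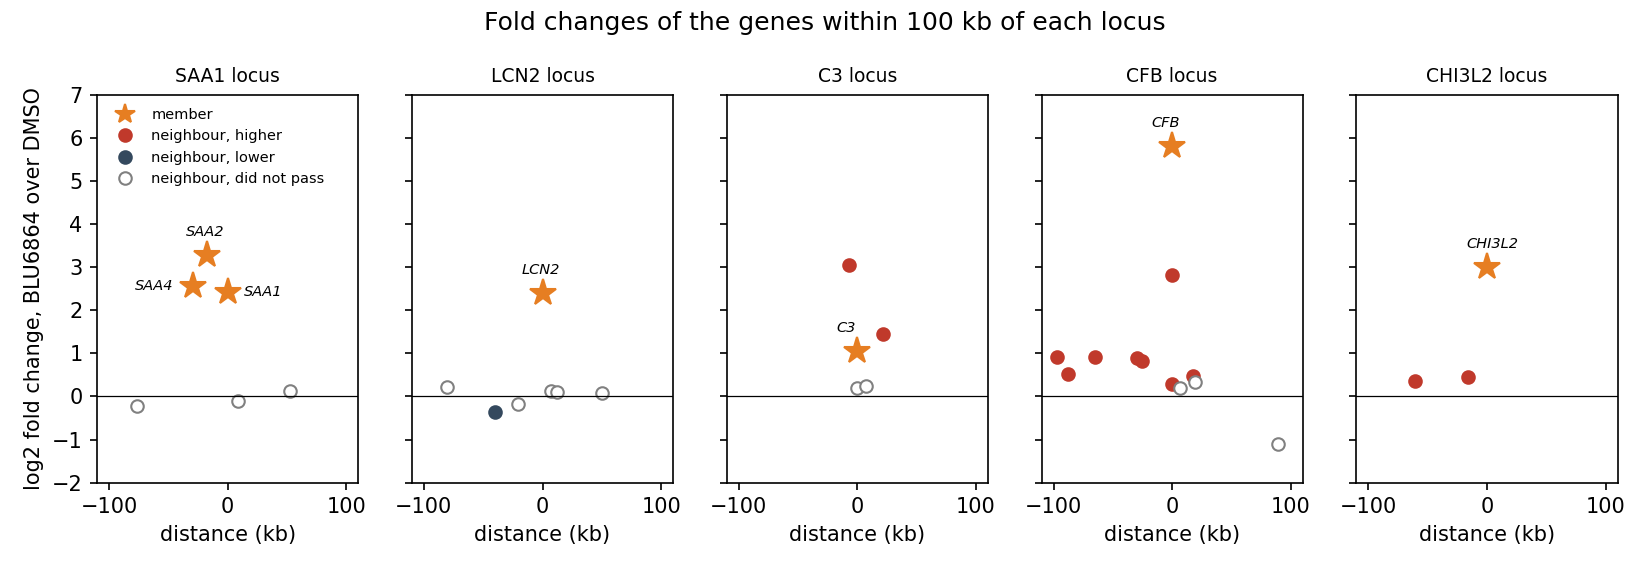
Log2 fold change, BLU6864 over DMSO, of members (stars) and of the other tested genes within 100 kb (circles, red for higher, dark blue for lower, open for not passed), by distance from the member in kilobases, at 0 where they overlap. The stars of the SAA genes, LCN2, CFB and CHI3L2 lie above the circles around them. That of C3 (1.06) lies below those of TNFSF14 (3.05) and SH2D3A (1.44). Of the neighbours of CFB 8 of 11 were higher, and the star of CFB (5.82) rests on 2 reads with DMSO.

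For each measured member, the other gene with the most similar course over the 4 libraries was taken from 10681 genes, by the root mean square difference of centred log2 values. With 4 libraries this mostly reflects the difference between the groups. PIK3IP1 was nearest to SAA1 (difference 0.0498), IMPA2 to SAA2 (0.0669), CA2 to LCN2 (0.0611), HEXIM1 to C3 (0.00864) and HKDC1 to CHI3L2 (0.139). CDK15 was nearest to SAA4 (0.317) and ERN2 to CFB (0.327), and both were less close. These are the 2 measured members with the fewest reads with DMSO.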

How the data were processed

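RNA sequencing was analysed for 4 libraries, grouped and numbered by their labels. Per the labels, TruSeq libraries gave 50 bp single-end reads, and the submitters' processing notes name STAR 2.3, hg19 and DESeq2. The BLU6864 titles carry a re-analysis mark. The methods of the study describe stranded, paired-end libraries, so the read layout is uncertain, and with it the shares of windows as long as a read. How reads were counted, with which gene models and whether by strand, is not given in the sources used here. The authors deposited raw counts per gene and the same counts divided by 1 size factor per library, a normalized signal. The table also holds the authors' own fold changes and p-values, which were not used.

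The counts entered edgeR 4.0.16 under R 4.3.3 (low counts removed by filterByExpr, TMM scaling, quasi-likelihood F test, two-sided, group only, Benjamini-Hochberg over 12696 genes), and genes were called at an adjusted p under 0.05. A gene with enough reads in the libraries of a single group passed the filter on low counts through that group, which fixed its direction. This held for SAA4, CFB, C2, VWF and TNFSF14 (BLU6864) and for CR1 (DMSO), among others. Standard errors were derived from the F statistic. The steps were tested on simulated data with 200 changed genes, far fewer than were called here, and with the same fixed dispersion for every gene. There 49% of 1.5-fold and 94% of 2-fold changes were recovered, with 12 false calls among 180. These rates hold for that setting and are not rates for the real libraries. Small changes can be missed here at a rate that was not measured. Means and SDs used the normalized counts. A ratio per size factor divides summed reads by summed size factors, with exact binomial intervals that cover counting error only. Where a symbol had several rows, the one with most reads was used. Exon lengths, coding sequences and windows of 50 bases came from GENCODE v44, a later annotation on another build than that of the counts, and promoters from RefSeq.

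The members and lists were chosen with earlier results of these data known. Of each list, up to 4 called genes with the smallest adjusted p and up to 2 with the highest level among those not called were named by rule, as were called neighbours within 100 kb and the nearest gene in course whose normalized counts averaged 100 or more. Genes outside this rule are marked. Alternatives were DESeq2 1.42.0, its size factors in edgeR, no filter, a filter of 50 reads in a group, each library left out, a replicate block, SAA1 and SAA2 summed, and pseudocounts of 1 and 5.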

Additional observations from a re-analysis of the deposited data

How the results depend on the processing

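All 78 fold changes of members recomputed under the alternatives stayed positive. The members were chosen on this contrast, and each measured one had both BLU6864 libraries above both DMSO libraries. These alternatives could therefore hardly change a sign, and only the sizes are informative. Leaving out a library moved SAA1 between 2.32 and 2.51, SAA2 between 3.23 and 3.33, SAA4 between 1.78 and 3.90, LCN2 between 2.22 and 2.56, C3 between 0.94 and 1.19, CFB between 5.01 and 8.94 and CHI3L2 between 2.96 and 3.04 on the log2 scale. With a pseudocount of 5, SAA2 stood at 3.10, SAA4 at 1.40 and CFB at 3.52. SAA4 did not reach the filter of 50 reads, and CHI3L1 entered edgeR only without a filter.

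Genes called higher numbered between 1250 and 3311 and genes called lower between 1490 and 3621 when a library was left out, with 2574 and 2790 over all libraries. With DESeq2 they were 1909 and 2356. In the same way the called genes ranged from 7 to 12 for cytokines and receptors, from 1 to 4 for other complement components, from 1 to 3 for complement regulators, from 1 to 3 for the chitinase list and from 5 to 10 for the iron list. Other complement components also had 2 called genes with DESeq2 and 2 with the filter of 50 reads. The labels give both groups replicate numbers 1 and 2. Deviations of same-numbered libraries correlated at 0.142 over 12696 genes, and with only 2 pairs this does not establish pairing. With the replicate block, 2924 genes were called higher and 3039 lower, and of the genes named by rule it changed the call of CLU (higher, adjusted p = 0.0188).

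Named genes that did not pass and changed sign on leaving out a library had these lowest and highest log2 fold changes: C1QBP -0.13 and 0.11, C5 -0.15 and 0.28, CD59 -0.14 and 0.11, CEBPB -1.1e-04 and 0.29, CTBS -0.088 and 0.12, FN1 -0.29 and 0.0070, IL6R -0.014 and 0.10, ITGB2 -0.12 and 0.39, and TLR4 -0.076 and 0.13. Differences in SAA4, CFB, C2 and CHI3L1 are limited by depth, at under 5 reads per DMSO library.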
